A study of Mus musculus with 24 samples.

Results

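Feedback inhibitors of MAP kinase signalling were followed as 10 genes across mouse brain RNA: the dual-specificity phosphatases Dusp1, Dusp4, Dusp5 and Dusp6, the Sprouty genes Spry1, Spry2 and Spry4, their relatives Spred1 and Spred2, and Errfi1. All probe sets that the array annotation assigns to these symbols were taken, whatever they read, which gave 26 of 45037 probe sets for 10 of 18193 named genes. The arrays covered 5 groups of male mice aged about 12 weeks, killed at the same clock time, ZT6 (6 h after light onset). Pull-down RNA came from brains of mice sleep deprived for 6 h by gentle handling (n = 6) and of mice left undisturbed (n = 6). It is polyadenylated RNA of Homer1a-expressing cells, recovered with anti-FLAG beads from formaldehyde-perfused brain by mRNA tagging and then amplified. Whole-brain RNA was total RNA of unfixed brain from sleep-deprived (n = 4) and undisturbed mice (n = 4). Supernatant RNA was the total RNA left after pull-downs (n = 4). It was kept as 1 group, because title and source field of supernatant 13 disagree on sleep deprivation. The strain and what drives the tagged protein are not given in the labels, and amplification is named there for immunoprecipitated RNA only.

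MAP kinase cascades carry signals of growth factor receptors and of calcium entry through Ras, Raf and MEK to ERK, and parallel branches end in JNK and p38. ERK activity induces genes whose products shut the cascade down again, so that transcripts of such inhibitors are often read as a sign of recent signalling. Their level alone does not tell which signal induced them. In neurons the same pathway links synaptic activity to immediate early genes such as Fos, Egr1 and Arc. Dual-specificity phosphatases remove the activating phosphates from the kinases themselves. Sprouty and Spred proteins act further upstream, between receptor and Raf, and Errfi1 (also called Mig6) binds and inhibits receptors of the EGF receptor family.

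The bases upstream of 4 of these genes are shown because Dusp1, Dusp6 and Errfi1 had the largest whole-brain differences among the main probe sets and Dusp5 holds a further motif. Each sequence covers the 250 bases before a transcription start of RefSeq on build GRCm38.p6, written 5′ to 3′ on the gene's strand. Capitals mark TGACG on either strand, the core of the cAMP response element that CREB binds, its full palindrome TGACGTCA, and the CArG box that serum response factor binds.
Dusp1: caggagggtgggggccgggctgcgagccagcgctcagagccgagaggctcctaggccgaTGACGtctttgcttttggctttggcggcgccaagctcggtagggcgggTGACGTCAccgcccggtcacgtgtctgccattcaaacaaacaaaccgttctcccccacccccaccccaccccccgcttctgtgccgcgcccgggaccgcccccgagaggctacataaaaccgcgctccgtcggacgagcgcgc
Errfi1: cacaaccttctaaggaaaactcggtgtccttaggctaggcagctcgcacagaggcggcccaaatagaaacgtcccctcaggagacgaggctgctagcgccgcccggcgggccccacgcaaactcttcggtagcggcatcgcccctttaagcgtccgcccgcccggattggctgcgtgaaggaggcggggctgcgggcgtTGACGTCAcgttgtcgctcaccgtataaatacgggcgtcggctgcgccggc
Dusp5: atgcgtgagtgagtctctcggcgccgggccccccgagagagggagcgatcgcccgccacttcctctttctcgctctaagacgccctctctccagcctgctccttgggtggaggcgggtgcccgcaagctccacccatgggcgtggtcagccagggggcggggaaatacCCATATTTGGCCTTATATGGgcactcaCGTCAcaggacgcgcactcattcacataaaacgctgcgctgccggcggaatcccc
Dusp6: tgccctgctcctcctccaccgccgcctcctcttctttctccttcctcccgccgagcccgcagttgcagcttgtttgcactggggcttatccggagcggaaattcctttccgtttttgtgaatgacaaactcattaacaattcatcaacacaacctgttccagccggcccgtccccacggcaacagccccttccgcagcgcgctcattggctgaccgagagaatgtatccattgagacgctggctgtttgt
The Dusp1 sequence is chr17:26508473-26508722 on the minus strand, and the Errfi1 sequence is chr4:150854820-150855069 on the plus strand, before the downstream one of its listed starts. The Dusp5 sequence is chr19:53528895-53529144 and the Dusp6 sequence chr10:99262981-99263230, both on the plus strand. The palindrome TGACGTCA, which holds TGACG on both strands, begins 143 bases before the Dusp1 start and 51 bases before the Errfi1 start. A further TGACG lies 191 bases before the Dusp1 start. Dusp5 has CArG boxes beginning 82 and 72 bases before its start, and TGACG at 55. The Dusp6 window holds none of these motifs.
Promoter windows were found for 8 of the 10 genes, 9 windows in all, with Dusp4 and Spry4 not analysed here. TGACG was present for Dusp1, Dusp5, Spred2 and Errfi1, 4 of 8 genes and 4 of 9 windows, against 17.8% of 32851 windows of this length. The other Errfi1 window, before its upstream start, held no TGACG, palindrome or CArG box. The palindrome was present for 2 genes, Dusp1 and Errfi1 (1.55% of all windows), and the CArG box for 1, Dusp5 (1.47%). The AP-1 motif TGANTCA was in none of the 9 windows (6.75% of all), and the ETS core GGAAG was in 5 windows (64.1% of all). A match describes the letters of a window and not a bound site.

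Values are deposited log2 RMA intensities, a measure of hybridization in which 1 unit is a doubling, and differences carry a standard error (SE). A probe set was called where the Benjamini-Hochberg adjusted p of limma, over all 45037 probe sets, was under 0.05. Array medians ranged from 4.37 to 5.70 in pull-down, against 6.04 to 6.24 in whole brain and 6.09 to 6.21 in supernatant. The 18S ribosomal RNA control read 6.83 to 11.1 in pull-down, against 13.85 ± 0.05 in whole brain (SD, n = 8) and 14.29 ± 0.09 in supernatant (SD, n = 4). Compared with whole brain, 3 of 6 Homer1 probe sets stood higher in pull-down and 2 stood lower. The deposited files hold no detection calls, so low readings cannot be told from background.

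Sleep deprivation in whole brain asked how the inhibitors stand after 6 h of enforced waking. Dusp1, a nuclear phosphatase that inactivates p38, JNK and ERK and is itself an immediate early gene, had the largest difference of the 10 genes. Dusp6, the cytoplasmic phosphatase specific for ERK, came next, followed by Errfi1 among the main probe sets (the probe set of each gene with the highest mean over all arrays). None of the 26 probe sets was called in either direction. Over all probe sets 0.0355% were called higher and 0.0111% lower.

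Dusp1 read 10.17, 10.01, 9.86 and 9.85 in sleep-deprived whole brain, against 9.02, 9.10, 9.34 and 9.36 in controls. All sleep-deprived arrays lay above all controls. The difference was 0.77 ± 0.12 (SE), a 1.70-fold higher intensity, with a limma adjusted p = 0.0502, just beyond the threshold, and rank 24 of 45037 by p. It passed after centring each array on its median (adjusted p = 0.0175), with array weights (0.0376), with a trended robust prior (0.000838) and after a filter on low levels (0.0127). It did not pass after quantile normalization (0.0511) or in 1 fit of all 24 arrays (adjusted p = 1), where no probe set was called. Without any one of the 8 arrays the adjusted p was 0.0992 to 0.174 and the difference 0.70 to 0.82.

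Dusp6 read 7.77, 7.79, 8.02 and 7.83 in sleep-deprived whole brain, against 6.95, 7.39, 7.45 and 7.17 in controls. The groups did not overlap. Its difference was 0.61 ± 0.13 with a limma adjusted p = 0.164. Dusp5, a nuclear phosphatase specific for ERK, read 8.29, 8.19, 8.20 and 8.21 in sleep-deprived whole brain, against 7.92, 8.16, 7.72 and 8.14 in controls. The lowest sleep-deprived array stood only just above the highest control, and the difference was 0.24 ± 0.12 (limma adjusted p = 0.493). Dusp4, a nuclear phosphatase of ERK and JNK, overlapped between the groups, at 6.46 to 6.75 in sleep-deprived whole brain and 6.25 to 6.67 in controls. Its difference of 0.13 had a 95% interval of −0.14 to 0.39.

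Errfi1 had 2 probe sets. The brighter, 1416129_at, read 9.12, 9.21, 9.05 and 9.29 in sleep-deprived whole brain, against 8.71, 8.88, 8.82 and 8.63 in controls. These groups did not overlap, with a difference of 0.41 ± 0.11 and a limma adjusted p = 0.273. The dim 1419816_s_at, whose suffix marks probes that can bind transcripts of several genes, overlapped between the groups and differed by 0.19 ± 0.19.

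Among the Sprouty genes, which block receptor tyrosine kinase signalling to Ras and Raf, both Spry2 probe sets averaged above controls without separating from them. Spry2 1436584_at read 8.86, 8.84, 8.79 and 8.69 in sleep-deprived whole brain and 8.43, 8.39, 8.71 and 8.67 in controls, a difference of 0.25 ± 0.11. For Spry2 1421656_at the difference was 0.31 ± 0.12 (limma adjusted p = 0.401). Spry1 differed by 0.08 with a 95% interval of −0.18 to 0.34, and its level lay below the array's median on all 8 whole-brain arrays. The 4 Spry4 probe sets differed by −0.06 to 0.17, and in each of them the groups overlapped. All but Spry4 1440867_at read below the array's median on all 8 whole-brain arrays.

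Spred1 and Spred2 belong to a family that brings the Ras GTPase-activating protein neurofibromin to the membrane. Of the 8 Spred1 probe sets 7 averaged above controls, by 0.22 to 0.55, and 5 of them separated the groups. Of all probe sets 33.3% averaged above controls and 1.75% separated the groups that way. The 8 measure 1 gene on the same arrays and so are not independent. Spred1 1423160_at read 9.49, 9.42, 9.45 and 9.44 in sleep-deprived whole brain, against 9.08, 9.25, 8.98 and 9.21 in controls, a difference of 0.32 ± 0.11. Spred1 1445228_at had the largest Spred1 difference, 0.55 ± 0.14 (limma adjusted p = 0.273), although sleep-deprived array 19 at 7.05 was barely above the highest control at 7.01. The eighth, 1443652_x_at, differed by −0.17 ± 0.13, and its level lay below the array's median on all 8 whole-brain arrays. Spred2 1434403_at read 8.84, 8.78, 8.93 and 8.99 in sleep-deprived whole brain, against 8.61, 8.51, 8.63 and 8.42 in controls, again without overlap (0.34 ± 0.11, limma adjusted p = 0.336). The other Spred2 probe sets differed by −0.04 to 0.20.

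Read over the 26 probe sets, 22 averaged above controls in sleep-deprived whole brain, against 33.3% of all probe sets. Their median difference was 0.23, where the median of all probe sets was −0.07, or −0.02 over those left by a filter on low levels. The sleep-deprived whole-brain arrays had a wider spread (mean SD over probe sets 1.95, against 1.89 in controls) and lower medians (mean 6.09 against 6.17). The part of this in the members' differences was not tested, and the shares over all probe sets are not matched for level. At an unadjusted p under 0.05, 12 of 26 (6 genes) were higher and 0 lower, beside 2.1% and 8.83% of all probe sets. Every sleep-deprived array lay above every control in 11 of 26 (6 genes), beside 1.75% of all. These 11 reached the smallest p that an exact two-sided permutation test of 4 against 4 arrays allows, 0.0286. Several probe sets measure 1 transcript and so are not independent. The genes were chosen with earlier results of these data known, so these shares describe the chosen genes and are no test of them as a set. In bulk RNA, a change in the number of cells that hold a transcript and a change in RNA per cell cannot be told apart. Summed markers of endothelial cells and pericytes (17 measured) read 11.63 to 11.68 in sleep-deprived whole brain and 11.61 to 11.72 in controls, and those of neurons (15 measured) 15.57 to 15.62 and 15.47 to 15.60. Astrocyte markers (15) read 14.14 to 14.20 and 14.12 to 14.17, oligodendrocyte markers (13) 14.18 to 14.35 and 14.20 to 14.42, and microglia markers (14) 12.18 to 12.51 and 12.20 to 12.39. The part of such shifts in the members' differences was not tested.

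**Figure D1:**
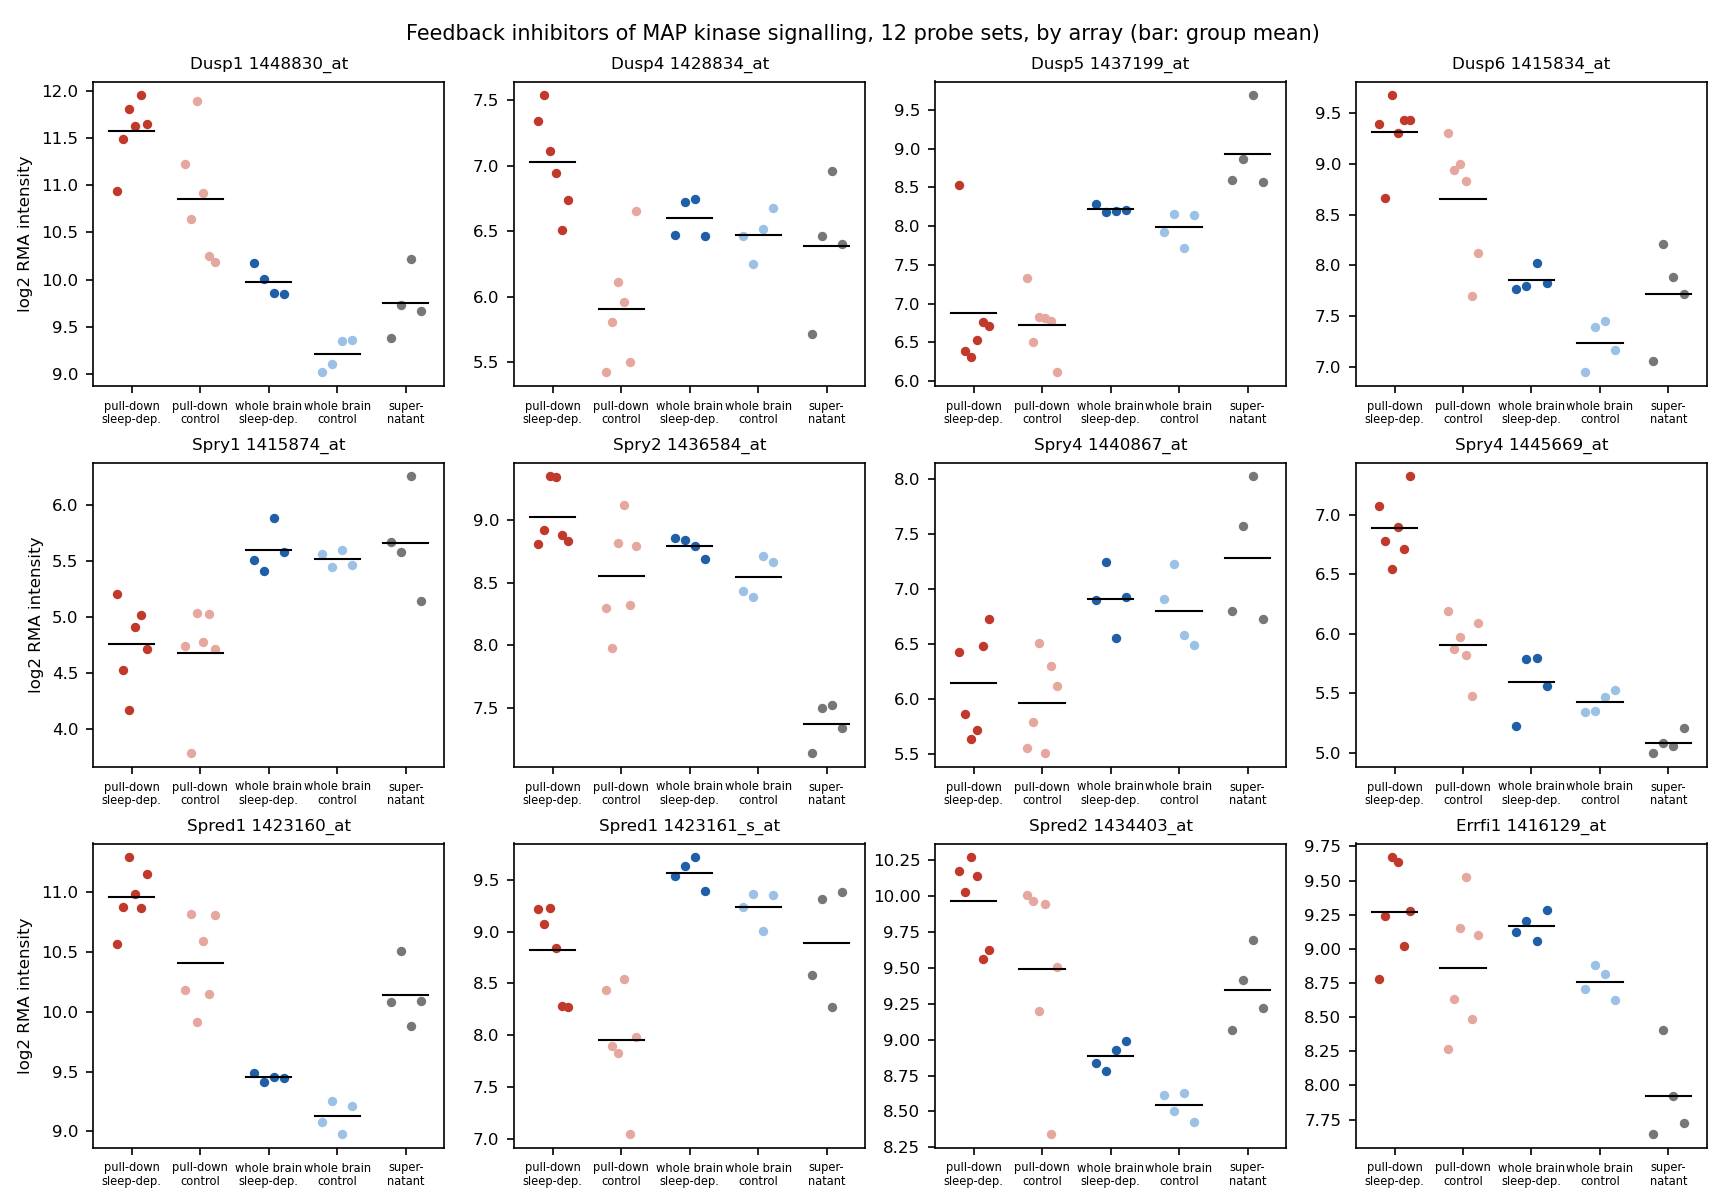
Log2 RMA intensity (vertical axes) of each array for 12 probe sets, in pull-down after sleep deprivation (n = 6) and in controls (n = 6), in whole brain after sleep deprivation (n = 4) and in controls (n = 4), and in supernatant (n = 4). Points are arrays and bars group means. The 12 are the main probe set of each gene plus Spry4 1445669_at and Spred1 1423161_s_at, the other probe sets with the smallest p for sleep deprivation in pull-down. Dusp1 in whole brain lies at 9.85 to 10.17 after sleep deprivation and at 9.02 to 9.36 in controls.

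Sleep deprivation in pull-down asked the same of RNA recovered from Homer1a-expressing cells. Here Dusp4 and one Spry4 probe set had the largest differences, ahead of Spred1, Dusp1 and Dusp6, while Dusp5 and Spry1 stayed close to controls on average. No probe set was called, members or others (0% of all, at adjusted p under 0.05 with limma). Unadjusted, 6 of 26 (5 genes) were higher at p under 0.05 and 0 lower, beside 0.493% and 0.462% of all probe sets.

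Dusp4 ran from 6.51 to 7.54 in sleep-deprived pull-down with a median of 7.03, against 5.42 to 6.65 with a median of 5.88 in controls. Only control 13, at 6.65, reached into the range of the sleep-deprived arrays. The difference was 1.12 ± 0.26 (limma p = 0.000478, adjusted p = 1, rank 12 of 45037), and an exact two-sided permutation test gave p = 0.00433. The adjusted p was 0.135 in 1 fit of all 24 arrays and 0.401 with array weights.

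Dusp1 ran from 10.94 to 11.96 in sleep-deprived pull-down with a median of 11.64, against 10.19 to 11.90 with a median of 10.78 in controls. The groups overlapped, since control 8 at 11.90 exceeded all but one sleep-deprived array. Each of the 6 sleep-deprived values exceeded the mean of controls, and the difference was 0.73 ± 0.30 (limma adjusted p = 1; exact permutation p = 0.0390). Dusp6 ran from 8.67 to 9.68 with a median of 9.42 in sleep-deprived pull-down, against 7.70 to 9.31 with a median of 8.89 in controls. Its difference was 0.67 ± 0.29, with overlap (exact permutation p = 0.0390, adjusted p = 1 with limma). Dusp5 differed by 0.15 ± 0.34, and array 1 at 8.54 stood far above the other sleep-deprived arrays at 6.31 to 6.77. Without it the Dusp5 difference was −0.19.

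Spry4 1445669_at was the single member probe set whose groups did not overlap in pull-down, beside 0.04% of all probe sets. It ran from 6.54 to 7.32 with a median of 6.83 in sleep-deprived pull-down, against 5.48 to 6.19 with a median of 5.92 in controls. The difference was 0.98 ± 0.22 (limma adjusted p = 1, rank 11), and the exact permutation p of 0.00216 is the smallest that 6 against 6 arrays allow. In 1 fit of all 24 arrays it passed, with an adjusted p = 0.0458, as 1 of 2 probe sets called higher among all 45037. The other 3 Spry4 probe sets did not share this difference, at −0.20 to 0.18. Of these, 1422021_at read below the array's median on all 12 pull-down arrays and 1422020_at on 8 of 12, where a change may not show. Spry2 1436584_at ran from 8.81 to 9.35 in sleep-deprived pull-down and from 7.98 to 9.12 in controls, a difference of 0.47 ± 0.25 with overlap. Spry2 1421656_at read 0.35 ± 0.49 and, without sleep-deprived array 1, −0.06. Spry1 differed by 0.08 ± 0.26, and its level lay below the array's median on 9 of 12 pull-down arrays.

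Among 8 Spred1 probe sets all averaged above controls in pull-down, beside 39.5% of all probe sets. One of them, 1443652_x_at, read below the array's median on 11 of 12 pull-down arrays. Spred1 1423161_s_at ran from 8.27 to 9.23 with a median of 8.96 in sleep-deprived pull-down, against 7.05 to 8.55 with a median of 7.94 in controls (0.86 ± 0.29, limma adjusted p = 1, exact permutation p = 0.0130). Spred1 1423160_at ran from 10.57 to 11.29 with a median of 10.93, against 9.91 to 10.82 with a median of 10.39 in controls (0.54 ± 0.24). In both the groups overlapped, though each sleep-deprived value exceeded the mean of controls. Spred2 1434403_at read 0.47 ± 0.29, with 6 of 6 above the mean of controls, and the other Spred2 probe sets −0.34 to 0.35. Errfi1 1416129_at ran from 8.78 to 9.67 in sleep-deprived pull-down and from 8.27 to 9.52 in controls, a difference of 0.41 ± 0.26. That is the same size as in whole brain with a larger error.

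Read over the 26 probe sets in pull-down, 22 averaged above controls (39.5% of all probe sets), with a median of 0.36 beside −0.05 for all. The median of all was 0.004 after a filter on low levels. In 20 of 26 the difference was above 0 in both extracts, beside 18% of all. As in whole brain, these shares belong to genes chosen with earlier results of these data known. The 12 pull-down arrays include 2 with a far higher 18S signal, sleep-deprived 1 at 11.04 and control 3 at 11.14, against 6.83 to 9.70 in the other 10. Both exceeded all other pull-down arrays in 6 of 26 member probe sets, of Dusp5, Spry2, Spred1 and Spred2, beside 15.6% of all probe sets. Without these 2 arrays again none was called, and Spry4 1445669_at differed by 1.00. Marker sums overlapped between the groups, with neurons at 15.02 to 15.63 in sleep-deprived pull-down and 14.59 to 15.54 in controls, and endothelial cells and pericytes at 9.33 to 10.21 and 9.39 to 9.86. Astrocyte markers read 12.79 to 13.39 and 12.57 to 13.34, oligodendrocyte markers 13.04 to 13.45 and 12.87 to 13.53, and microglia markers 11.07 to 11.87 and 11.22 to 11.98. Their part in the result was not tested.

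**Figure D2:**
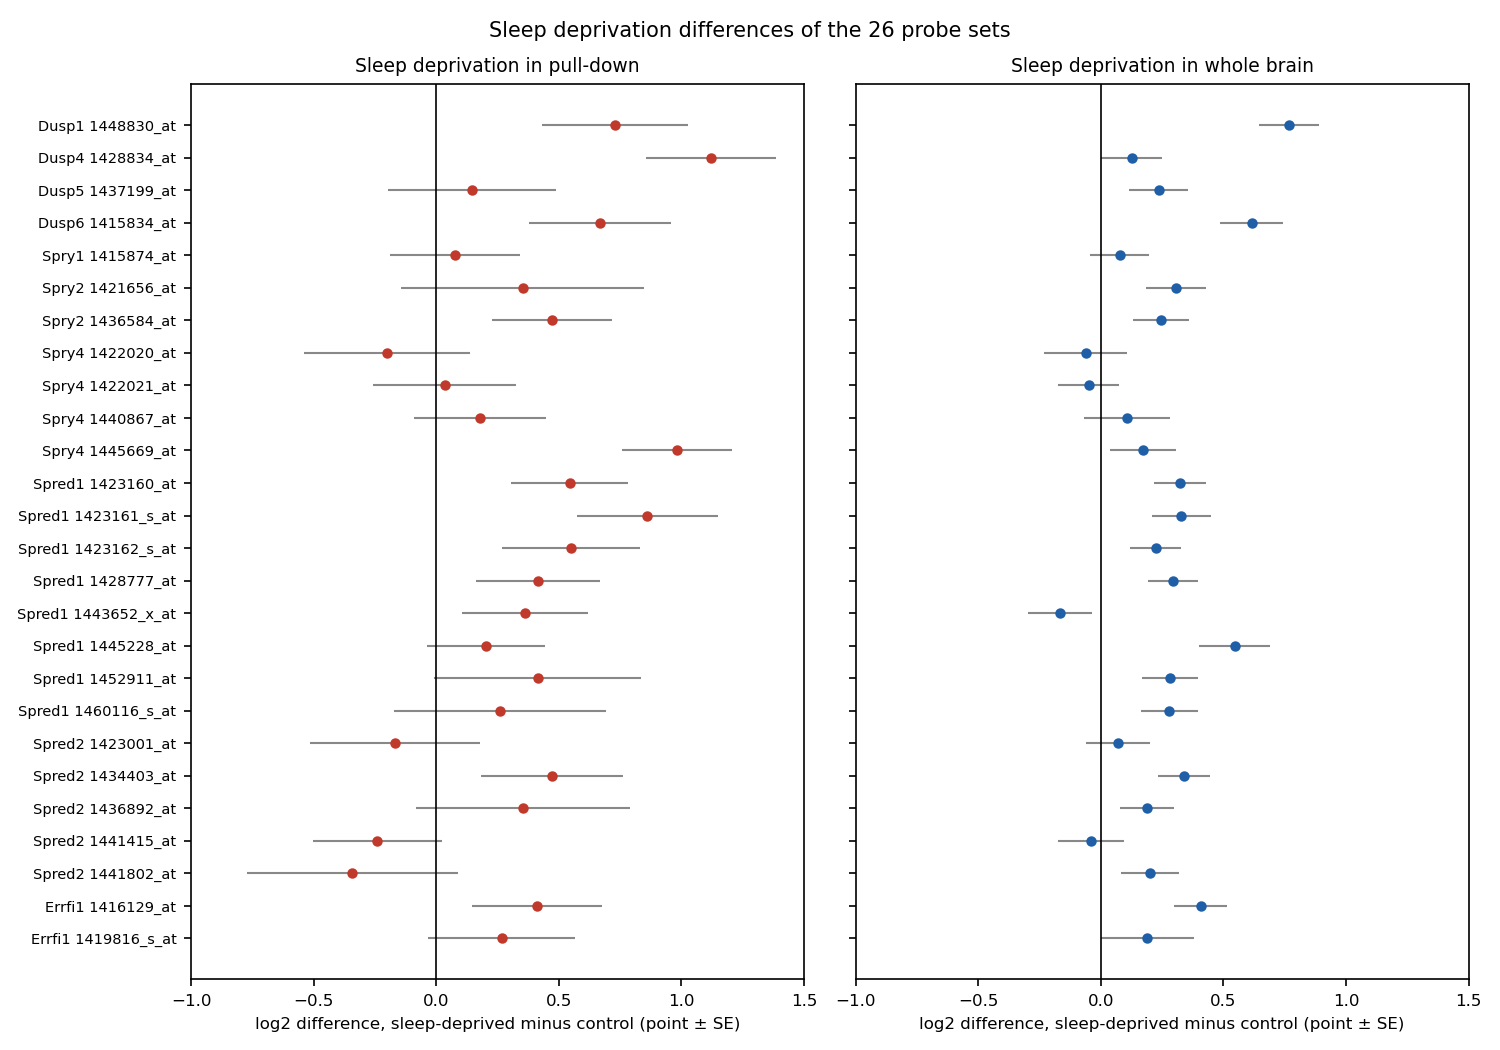
Log2 difference of sleep-deprived minus control arrays (horizontal axes) for each of the 26 probe sets (rows), in pull-down on the left (n = 6 against 6) and whole brain on the right (n = 4 against 4). Points are differences and lines their SE. Dusp4 stands at 1.12 and Spry4 1445669_at at 0.98 in pull-down, against 0.13 and 0.17 in whole brain.

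Whether sleep deprivation acted differently in the 2 extracts was tested as an interaction on 20 arrays. No probe set was called (0% of all). At an unadjusted p under 0.05, 2 of 26 differed, beside 0.338% of all. The pull-down difference exceeded that of whole brain by 0.99 ± 0.33 for Dusp4, with a 95% interval of 0.30 to 1.68. For Spry4 1445669_at it did so by 0.81 ± 0.28, with an interval of 0.23 to 1.39. Both had an adjusted p = 1 with limma. The other Spry4 probe sets stood at −0.14, 0.08 and 0.07. Spry4 1445669_at read below the array's median on all 8 whole-brain arrays. For Dusp1 the difference between the extracts was −0.04 ± 0.38, with a 95% interval of −0.83 to 0.75. For Dusp6 it was 0.05 ± 0.37 and for Errfi1 1416129_at 0.003 ± 0.33, so that these intervals do not exclude sizable differences either way.

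Pull-down against whole brain asked which inhibitor transcripts read higher in pull-down RNA. Pull-down RNA was polyadenylated, amplified and from formaldehyde-perfused brain, whole-brain RNA was total and from unfixed brain, and supernatant RNA was total. A difference of cells therefore cannot be told apart from one of preparation in these comparisons. Both phosphatases with the largest whole-brain sleep deprivation differences, Dusp1 and Dusp6, stood higher in pull-down, as did single probe sets of Spred1, Spred2 and Spry4. Dusp5, Spry1 and most other probe sets of Spred1, Spred2 and Spry4 were lower. Of 26 probe sets 5 (5 genes) were called higher and 16 (7 genes) lower, beside 8.06% and 76.3% of all probe sets. The median difference of all probe sets was −0.78. Relative to that shift the 5 called higher stood at 1.67 to 2.41, Spry2 1436584_at at 0.90, Errfi1 1416129_at at 0.88 and Dusp4 at 0.71. Spry1 stood at −0.05 and the 3 lower Spry4 probe sets at −0.02 to −0.21, so that their lower values were about those of the median probe set. Dusp5 stood at −0.52. The differences given next are before this shift is taken off.

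Dusp1 ran from 10.19 to 11.96 in pull-down (n = 12) and from 9.02 to 10.17 in whole brain (n = 8), so every pull-down array lay above every whole-brain array. It was higher by 1.63 ± 0.19 (limma adjusted p = 1.56e-08). Ordered by mean, Dusp1 stood at 11.58 ± 0.35 in sleep-deprived pull-down and 10.85 ± 0.65 in control pull-down (SD, n = 6 each). Below came sleep-deprived whole brain at 9.97 ± 0.15 (SD, n = 4), supernatant at 9.75 ± 0.35 (SD, n = 4) and control whole brain at 9.21 ± 0.17 (SD, n = 4). Neighbours in this order overlapped, other than control pull-down and sleep-deprived whole brain, and supernatant and control whole brain. Dusp6 was higher in pull-down by 1.44 ± 0.19 (limma adjusted p = 1.51e-07), at 9.32 ± 0.34 in sleep-deprived and 8.65 ± 0.61 in control pull-down (SD, n = 6 each). Dusp6 averaged 7.85 ± 0.12 in sleep-deprived whole brain, 7.72 ± 0.49 in supernatant and 7.24 ± 0.23 in control whole brain (SD, n = 4 each).

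The other phosphatases differed from this order. Dusp5 was lower in pull-down, with a difference of −1.30 ± 0.22 (limma adjusted p = 8.97e-06), at 6.87 ± 0.83 in sleep-deprived and 6.73 ± 0.40 in control pull-down (SD, n = 6 each). Its highest mean was in supernatant, 8.93 ± 0.52 (SD, n = 4), above whole brain at 8.22 ± 0.05 after sleep deprivation and 7.99 ± 0.21 in controls (SD, n = 4 each). Dusp4 was not called (−0.07 ± 0.17). Its means spanned 7.03 ± 0.38 in sleep-deprived pull-down to 5.91 ± 0.45 in control pull-down (SD, n = 6 each), with the other 3 groups between them at 6.39 to 6.60.

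Errfi1 1416129_at did not pass between pull-down and whole brain (0.10 ± 0.16, 95% interval −0.23 to 0.43) and was lower than both in supernatant. It averaged 9.27 ± 0.35 in sleep-deprived and 8.86 ± 0.47 in control pull-down (SD, n = 6 each), 9.17 ± 0.10 in sleep-deprived and 8.76 ± 0.11 in control whole brain, and 7.93 ± 0.34 in supernatant (SD, n = 4 each). Spry2 1436584_at had the same order of extracts, at 9.03 ± 0.25 and 8.55 ± 0.42 in pull-down (SD, n = 6 each), 8.80 ± 0.08 and 8.55 ± 0.16 in whole brain, and 7.37 ± 0.18 in supernatant (SD, n = 4 each). Spry1 was lower in pull-down (difference −0.84 ± 0.17), at 3.78 to 5.21 in pull-down and 5.41 to 5.88 in whole brain. It was dim, below the array's median on 9 of 12 pull-down and 8 of 8 whole-brain arrays.

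Probe sets of 1 gene disagreed in sign. Spry4 1445669_at was higher in pull-down by 0.88 ± 0.13 (limma adjusted p = 1.07e-06), while the other 3 Spry4 probe sets were lower (−0.80 to −0.99). In whole brain and supernatant 1445669_at read below the array's median on all 8 and 4 arrays, and in pull-down on 1 of 12. Spry4 1422021_at did so on all arrays of each extract. Spry4 1422020_at did so on 8 of 12 pull-down, 8 of 8 whole-brain and 2 of 4 supernatant arrays. Spred1 1423160_at was higher by 1.40 ± 0.14 and Spred1 1423162_s_at lower (−2.55 ± 0.18). Spred2 1434403_at was higher by 1.02 ± 0.18, and its other 4 probe sets were lower (−1.51 to −1.74). Errfi1 1419816_s_at (−1.54 ± 0.20) and Spry2 1421656_at (−1.29 ± 0.32) were lower, where the brighter probe set of each gene was not called. Where on a transcript each probe set lies is not given in the files. The 3′ minus 5′ signal of Gapdh, which grows with shorter or more truncated RNA, was 4.92 ± 0.78 in pull-down (SD, n = 12), against 2.75 ± 0.16 in whole brain (SD, n = 8) and 2.43 ± 0.13 in supernatant (SD, n = 4). Its part in these disagreements was not tested.

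Against supernatant, 6 of 26 were higher in pull-down (6 genes) and 16 lower (7 genes), beside 11.2% and 67.4% of all probe sets. Those higher were Dusp1 by 1.47 ± 0.24, Dusp6 by 1.27 ± 0.24, Spry2 1436584_at by 1.42 ± 0.18, Spry4 1445669_at by 1.31 ± 0.17, Errfi1 1416129_at by 1.14 ± 0.20 and Spred1 1423160_at by 0.54 ± 0.18. Higher than in both other extracts were 4 of 26, of Dusp1, Dusp6, Spred1 and Spry4, beside 7.46% of all, and lower than in both were 15 (7 genes), beside 65.8%. Whole brain stood above supernatant for 2 of 26, Spry2 1436584_at by 1.30 ± 0.19 and Errfi1 1416129_at by 1.04 ± 0.22, beside 8.89% of all. It stood below for 1, Spred1 1423160_at (−0.85 ± 0.19), beside 2.01%. Against whole brain, 17 of 17 measured endothelial and pericyte markers stood lower in pull-down, with sums of 9.33 to 10.21, against 11.61 to 11.72. So did 13 of 14 microglia markers, 11 of 13 oligodendrocyte markers and 13 of 15 astrocyte markers (1 stood higher), while of 15 neuron markers 2 were higher and 7 lower. Of all genes 12.9% were higher and 68.8% lower in this comparison. The part of cell makeup in the members' differences was not tested.

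Scaling decided many of these calls. Quantile normalization gave 9 of 26 higher and 10 lower for pull-down against whole brain, beside 32.3% and 26.2% of all probe sets. Centring each array on its median gave 12 and 3, beside 52% and 18.3%. The shares over all probe sets moved in the same directions as the counts of members. Under all 3 scalings Dusp1, Dusp6, Spred1 1423160_at, Spred2 1434403_at and Spry4 1445669_at were called higher, and Spred1 1423162_s_at, Spred2 1441415_at and Spred2 1441802_at lower. Spred2 1441415_at read below the array's median on all 12 pull-down, 8 whole-brain and 4 supernatant arrays. Spred2 1441802_at did so on 10 of 12 pull-down and 2 of 8 whole-brain arrays. Dusp4, at −0.07 as deposited, was called higher after quantile normalization (0.95) and after centring (1.09). Spry1, at −0.84 and called lower as deposited, stood at 0.24 and, called higher, at 0.32. Errfi1 1416129_at and Spry2 1436584_at, not called as deposited, were called higher under both other scalings. Dusp5 kept its call after quantile normalization (−0.42) and lost it after centring (−0.15).

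**Figure D3:**
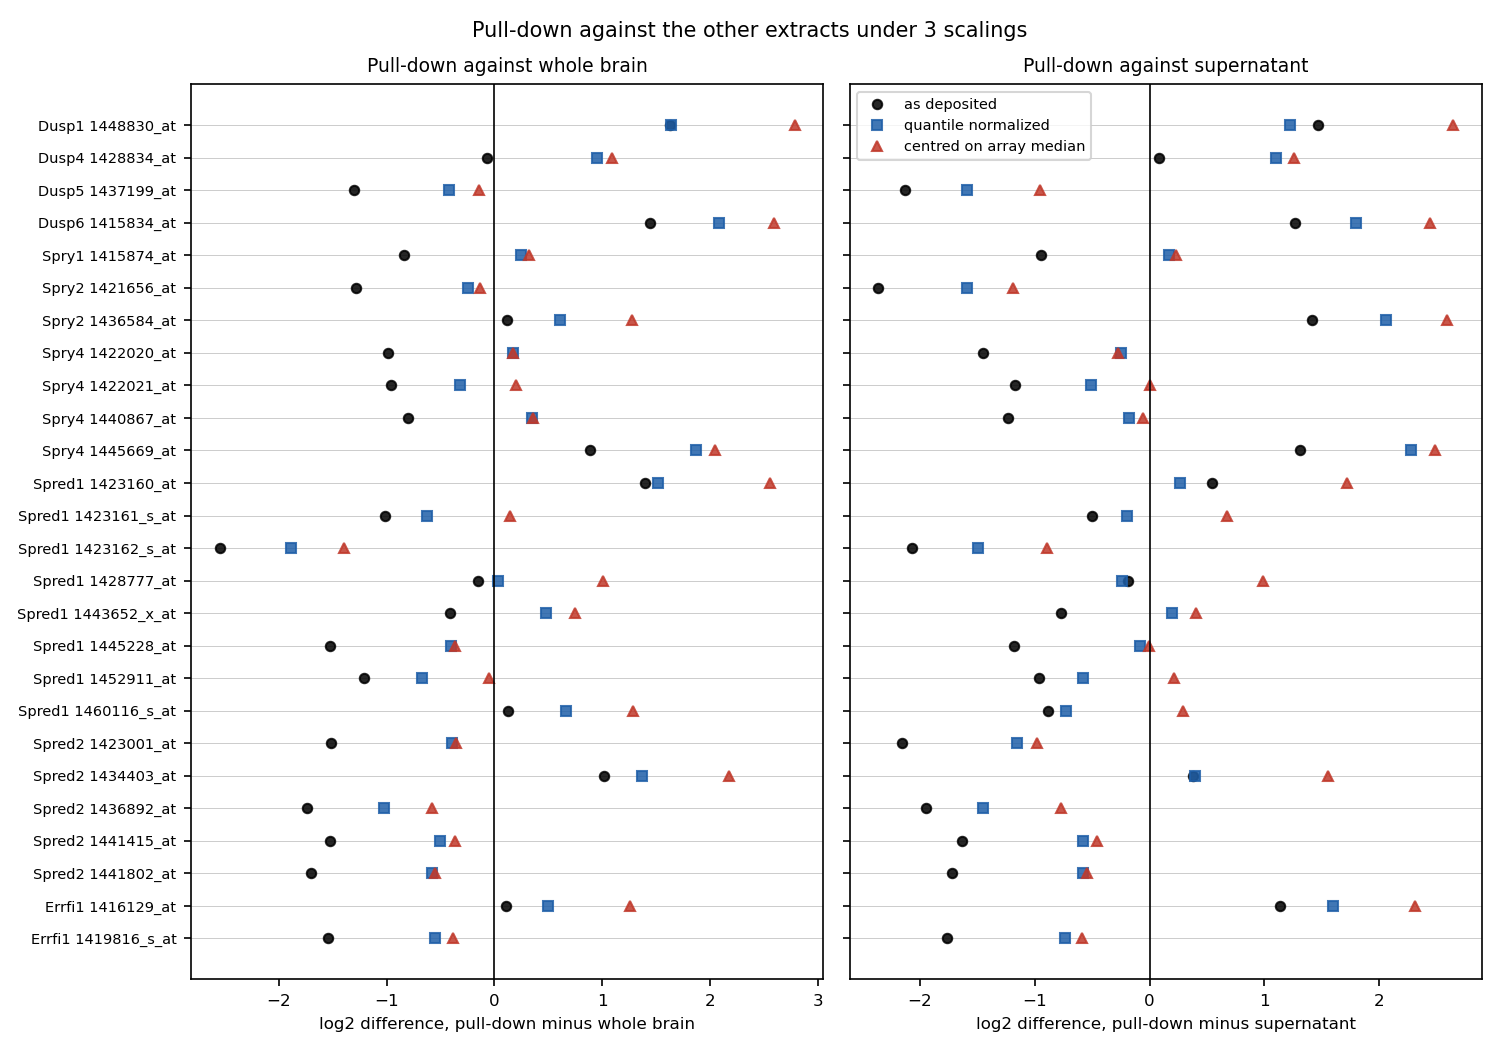
Log2 difference (horizontal axes) of pull-down minus whole brain on the left and of pull-down minus supernatant on the right, for each of the 26 probe sets (rows), from the deposited values (circles), after quantile normalization (squares) and after centring each array on its median (triangles). Dusp1 lies right of 0 under each scaling, while Dusp4 against whole brain lies at −0.07, 0.95 and 1.09.

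The rest of the pathway was read from 4 gene lists, with 1 probe set per gene. These lists, like the 10 inhibitors, were chosen with earlier results of these data known. Contrasts between them are therefore descriptive. In whole brain 3 of 25 measured ERK target genes rose after sleep deprivation and 0 fell, beside 0.0605% and 0.0055% of all 18193 genes. These were the immediate early transcription factors Fos (1.06 ± 0.12, limma adjusted p = 0.0115) and Egr2 (1.12 ± 0.17, adjusted p = 0.0371) and the synaptic plasticity gene Arc (1.22 ± 0.15, adjusted p = 0.0140). The list's median was 0.19, against −0.05 for all genes. By the same probe set per gene the 10 inhibitors had a median of 0.28, and all 10 averaged above controls, as did 36.7% of all genes. That share is not matched for level. None of 22 core cascade genes, 27 receptors and ligands or 31 other feedback inhibitors was called, with medians of −0.02, 0.004 and −0.02. At an unadjusted p under 0.05, 11 of 25 ERK targets were higher and 2 lower (Fosl1 −0.29 ± 0.13 and Egr4 −0.28 ± 0.12), beside 2.59% and 7.97% of all genes. By the same measure 1 core gene was higher, 3 receptors or ligands were lower, and of other inhibitors 1 was higher and 1 lower.

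Within those lists the smallest p in whole brain belonged to Map2k4, a kinase upstream of JNK and p38 (0.40 ± 0.12, limma adjusted p = 0.333), the growth factor receptor Fgfr2 (−0.31 ± 0.11, adjusted p = 0.352) and the adaptor Dok1 (−0.31 ± 0.12, adjusted p = 0.381). In pull-down none of the 4 lists had a called gene. The ERK targets had a median of 0.32 there, against −0.03 for all genes, and 8 of 25 were higher and 0 lower at an unadjusted p under 0.05, beside 0.687% and 0.385% of all genes. Egr2 differed by 1.87 ± 0.41, Fosl2 by 1.22 ± 0.27 and Egr3 by 0.85 ± 0.27 (adjusted p = 1 each with limma). The 10 inhibitors had a median of 0.47 (10 of 10 above 0, beside 43.9% of all genes), the core genes 0.01, receptors and ligands −0.06, and the other inhibitors 0.03.

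**Figure D4:**
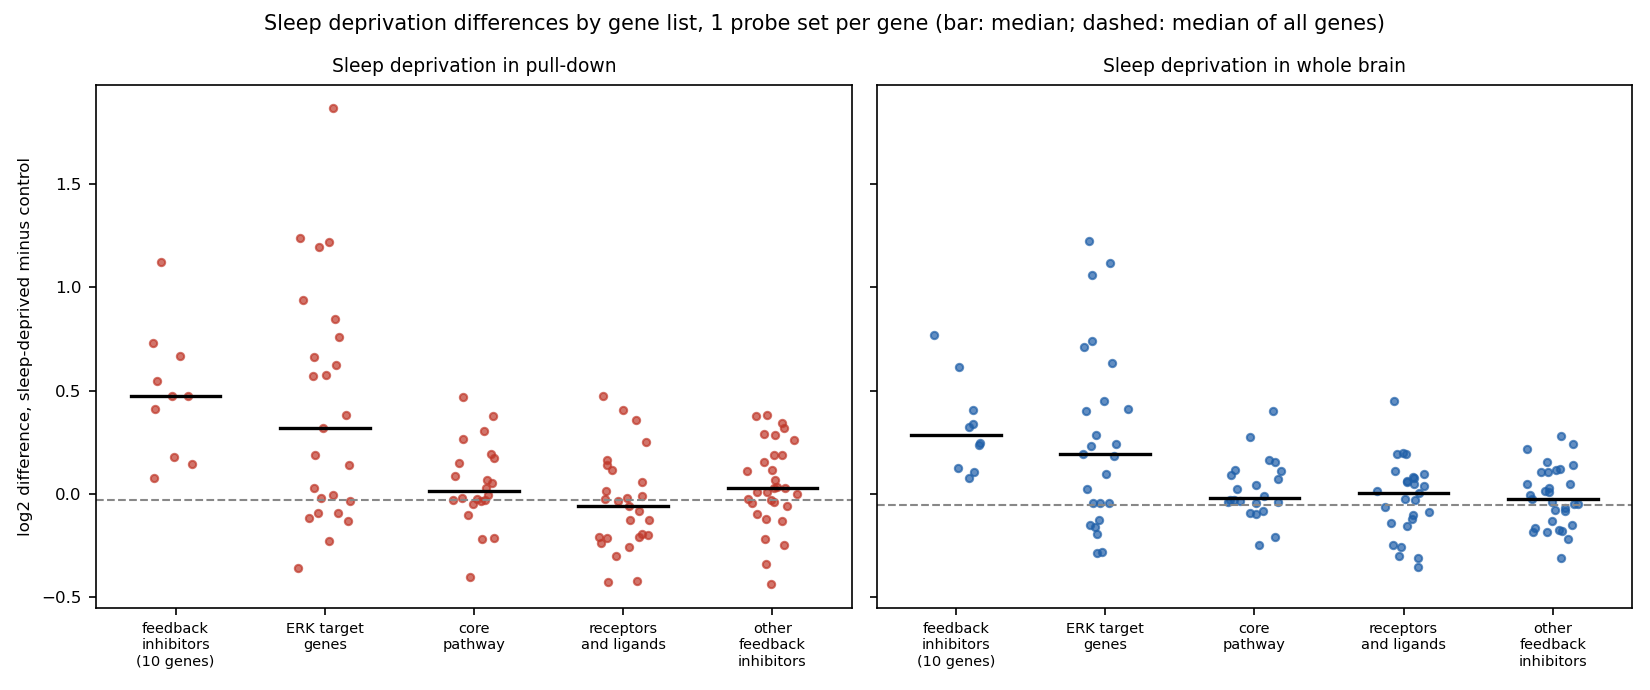
Log2 difference of sleep-deprived minus control arrays (vertical axis) by gene list, in pull-down on the left and whole brain on the right. Points are genes with 1 probe set each, bars are list medians and the dashed line is the median of all genes. The 10 inhibitors have medians of 0.47 in pull-down and 0.28 in whole brain, against −0.03 and −0.05 for all genes.

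For each inhibitor the gene with the most similar pattern was looked up by Pearson's r, as a description. Over the 8 whole-brain arrays Dusp1 ran closest to the metallothionein Mt2 (r = 0.973, Spearman's rho = 0.976). Mt2 differed by 0.65 ± 0.11 after sleep deprivation (limma adjusted p = 0.0733). Over all 24 arrays, each group centred on its mean, Dusp1 ran closest to Fos (r = 0.855, rho = 0.758). Dusp6 ran closest to Peli1 in whole brain (r = 0.975) and to Tmod2 over the 24 centred arrays (r = 0.841), and Errfi1 to Gpatch8 (r = 0.957) and Cdv3 (r = 0.921). Over the centred arrays the highest value belonged to Spred2 with Ypel5 (r = 0.944), followed by Dusp5 with Gpr37l1 (r = 0.935) and Spry2 with Celf2 (r = 0.934). Array-wide signal and the sleep deprivation groups in whole brain are shared by all genes in such a correlation. The best of all probe sets with 1 symbol, members left out, is high by selection.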

How the data were processed

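Transcript levels were measured on 24 short-oligonucleotide arrays. The authors deposited log2 intensities per probe set, made with RMA in the affy package per the submitters' processing notes, with versions not given in the sources used here. Of 45101 probe sets 64 controls were left out. Values were used as deposited, although pull-down arrays still differ in their medians. The array annotation gave 1 symbol to 34945 probe sets, several to 932 and none to 9160, and names came only from those with 1. Arrays have no read depth and their number limits the precision.

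limma 3.58.1, run under R 4.3.3, fitted linear models with moderated variances to every probe set (two-sided, Benjamini-Hochberg adjustment, threshold 0.05), and its use was checked on simulated data. Sleep deprivation was tested on each extract's own arrays and as an interaction, and extracts in 1 fit of 5 groups. P-values measure the spread between these arrays. Single probe sets also had exact permutation tests of the arrays. The labels name no batch and tie no supernatant to a pull-down. The inhibitors and all gene lists were chosen with earlier results of these data known. All probe sets of the 10 genes were named. Of each pathway list, the rule named genes called for sleep deprivation, the 3 with the smallest p there and the 3 with the largest extract difference; a few of these appear in the text. Lists of 22 core, 27 receptor or ligand, 25 ERK target and 31 other inhibitor genes were measured. Alternatives were other scalings, array weights, priors, a filter on low levels and arrays left out. Promoter sequences are from RefSeq, and no sequence of Spry4 was used.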

Additional observations from a re-analysis of the deposited data

Results flagged for a closer look

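Of the values, 5 stood far from their own group by Dixon's test at the 95% level, among 130 groups of arrays tested, where chance alone marks about 1 in 20. Dusp5 read 8.54 in pull-down after sleep deprivation 1, with the other 5 arrays at 6.31 to 6.77. Spred1 1423162_s_at read 8.03 on the same array, with the others at 6.33 to 6.93. Dusp6 read 8.67 in pull-down after sleep deprivation 3, below the others at 9.30 to 9.68. Spry1 read 3.78 in control pull-down 4, with the others at 4.72 to 5.04. Spred1 1443652_x_at read 4.51 in control whole brain 22, with the others at 4.75 to 4.78.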

How the results depend on the processing

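The number of arrays (4 or 6 per group) limits the sleep deprivation tests, and the absence of detection calls limits the dim probe sets. In whole brain the count of members called higher became 1 (Dusp1) after centring, with array weights, with the trended robust prior, after the filter on low levels and when adjusted over 3358 enriched probe sets only, where 0.0422% to 0.417% of the probe sets tested were called higher. It was 0 after quantile normalization and in 1 fit of all 24 arrays, and 11 passed the unadjusted exact permutation (1.75% of all). In pull-down 1 passed in 1 fit of all 24 arrays (Spry4 1445669_at, 1 of 2 called higher among 45037) and 7 the unadjusted exact permutation (0.719% of all). Leaving out single arrays gave 0 to 0 in these comparisons and in the interaction.

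For pull-down against whole brain, beside 5 higher and 16 lower as reported, quantile normalization gave 9 and 10 (32.3% and 26.2% of all), centring 12 and 3 (52% and 18.3%), and the filter 9 lower (69.1%). Without single arrays these stayed 5 to 5 and 16 to 16. Against supernatant 9 were lower after quantile normalization (27.6% of all), 6 after centring (18.8%) and 9 after the filter (61.2%), beside 16, and 6 to 7 were higher and 14 to 17 lower without single arrays. Without supernatant 14, 15 or 16, calls of Spred1 1460116_s_at were lost (adjusted p = 0.0503 to 0.0663), and without supernatant 16 that of Spred1 1452911_at (0.0503). Spred1 1423161_s_at was called lower (0.0177 to 0.0495) without sleep-deprived pull-down 1 or 6, control pull-down 3 or 9, or supernatant 13 or 15, and Spred2 1434403_at higher without control pull-down 11 (0.0100). Whole brain against supernatant gave 6 lower after quantile normalization (9.61% of all), 0 after centring (3.91%), and 4 higher and 6 lower with array weights (17.5% and 13.3%), beside 2 and 1. Without single arrays it gave 2 to 2 higher and 1 to 3 lower, with 3 without sleep-deprived pull-down 1 or control pull-down 11 and 2 without control pull-down 3, arrays that enter only through the shared spread.

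Between extracts, scaling turned these signs. Against whole brain, quantile normalization gave Dusp4 0.95, Spry1 0.24, Spry4 1422020_at 0.17, Spry4 1440867_at 0.35 and Spred1 1443652_x_at 0.48. Centring gave Dusp4 1.09, Spry1 0.32, Spry4 1422020_at 0.17, 1422021_at 0.20 and 1440867_at 0.35, and Spred1 1423161_s_at 0.14, 1428777_at 1.00 and 1443652_x_at 0.74. Against supernatant, quantile normalization gave Spry1 0.17 and Spred1 1443652_x_at 0.19, and centring gave Spry1 0.23, Spry4 1422021_at 0.0011, and Spred1 1428777_at 0.99, 1443652_x_at 0.41, 1452911_at 0.21 and 1460116_s_at 0.29. The cause was not tested. Of 387 recomputed member differences for sleep deprivation in whole brain 371 kept their side of the threshold, in pull-down 509 of 517, and for the interaction 669 of 669. Among uncalled values the sign changed in 15, 15 and 84 of these. No paired analysis was possible because the groups compared share at most 1 replicate number.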

Other observations

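Supernatants entered no sleep deprivation comparison and their values stand singly. Dusp1 read 10.22 and 9.73 in supernatants 15 and 14, titled sleep-deprived, 9.38 in supernatant 13, titled sleep-deprived with control in its source field, and 9.67 in the control supernatant 16. Dusp6 read 7.88 and 8.21 in supernatants 15 and 14, 7.05 in supernatant 13 and 7.72 in supernatant 16. Dusp4 read 6.96 and 6.47, then 5.71 and 6.40 in the same order. Errfi1 1416129_at read 7.93 and 8.41, then 7.64 and 7.73. Supernatant 13 was the lowest of the 4 for each of these genes.

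Of 31 other feedback inhibitors of the pathway, 6 were higher and 22 lower in pull-down against whole brain, beside 12.9% and 68.8% of all genes. The genes given here were among the 3 with the largest difference in an extract comparison. Lrig1, a membrane protein that promotes loss of EGF receptors, differed by −3.56 ± 0.22 (SE) for pull-down against whole brain, a lower level in pull-down. Ptpn5, a striatum-rich phosphatase that acts on ERK, likewise differed by −3.29 ± 0.28. Rgs2, a regulator of G protein signalling, was higher in pull-down than in supernatant by 2.48 ± 0.18. Each passed the threshold with limma.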
